A study of Mus musculus with 11 samples.

Results

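The mitochondrial carriers of the Slc25 family were examined in the livers of mice given 5'-adenosine monophosphate (5'-AMP). Members were all gene symbols of the array table that begin with Slc25a, together with Ucp2 and Ucp3. These were 31 of the 31508 symbols in the table. A probe counted as detected where its detection p-value was under 0.05, and a gene was analysed where it had a probe detected on at least 3 of the 11 arrays. Of the 31 members 24 met this, among 12512 genes in all, and each was represented by its brightest probe.

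All mice were female C57Bl/6, and total RNA of the whole liver was hybridised to Illumina BeadChips, 1 array per animal. The 3 controls received vehicle. The other 8 received 0.5 mg of 5'-AMP per g of body weight, and 4 of them were killed at 6 h and 4 at 12 h. In the labels AIHM stands for the earlier group, and RF or Rev Flip, a term that is not explained, for the later one. The labels give neither the age of the animals nor the hour at which the controls were killed, so time since injection and time of day cannot be told apart. The 11 arrays lay on 5 chips, numbered here 1 to 5. Of these, 3 chips held both a control and a 6 h array, and 2 held both a control and a 12 h array.

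Across the series arrays had a mean signal of 412 to 635 and 15131 to 15903 detected probes. Of 11 hepatocyte markers 9 passed the filter, all of them detected on every array, and Fgb and Tat did not. Their summed signal spanned 219493 to 241470 on control arrays, 188360 to 237766 on 6 h arrays and 231010 to 238687 on 12 h arrays, so the groups overlapped. Of 49 marker genes of 11 cell types that passed, 1 was called at 6 h, where 1.13% of all genes were, and 2 at 12 h, where 3.23% were. The neutrophil marker S100a8 was higher by 2.01 ± 0.41 SE log2 units at 6 h (adjusted p = 0.0409) and by 1.70 ± 0.41 SE at 12 h (adjusted p = 0.0445), and the stellate cell marker Lrat differed by -1.07 ± 0.24 SE at 12 h (adjusted p = 0.0309). S100a9, another neutrophil marker that passed, was detected on 0 of 3 control arrays. At 6 h it was detected on 3 of 4 arrays, and at 12 h on 4 of 4. It passed the filter only by counting its treated arrays, so its higher level there is given without a test. The gene stays among the 49, but its lack of a call is not read as a result. Lcn2 differed by -0.88 at 6 h and -0.19 at 12 h, the opposite sign to S100a8, and was not called. Over the 3 of 8 neutrophil markers that passed, the summed signal spanned 463 to 2376 on control arrays, 663 to 920 on 6 h arrays and 665 to 1536 on 12 h arrays. On control arrays S100a8 read at most 6.43 and S100a9 at most 5.27 on the log2 scale, so most of that sum was Lcn2. Over the 5 of 8 stellate cell markers the summed signal spanned 10282 to 11664, 9424 to 11815 and 7940 to 9072. The part of these cells in the values of the carriers was not tested.

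Slc25 proteins are built from repeated pairs of membrane-spanning helices and sit mostly in the inner mitochondrial membrane, where each exchanges particular metabolites between the cytosol and the matrix. They carry the ADP and ATP of oxidative phosphorylation, the intermediates of the citric acid cycle, acylcarnitines, amino acids, cofactors and iron. In liver they connect cytosolic and matrix steps of urea synthesis, gluconeogenesis, fatty acid synthesis and fatty acid oxidation. The uncoupling proteins belong to the same family and let protons return to the matrix without ATP synthesis.

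The carrier called at both times was Slc25a25, and a further carrier that the table lists under an older name, AI132487 (now Slc25a47), was called at 12 h. The bases before their transcription start sites are shown because these were the carriers called against control. They are RefSeq sequences of mouse build GRCm38.p6, printed 5′ to 3′ on the gene's strand. Of the 3 start sites of Slc25a25 the one shown, chr2:32424067-32424316 on the minus strand, holds the cAMP response element TGACGTCA, in capitals, 150 bases before the start. The window of Slc25a47, chr12:108850879-108851128 on the plus strand, holds the nuclear receptor half-site AGGTCA on the other strand, in capitals, 153 bases before the start.
Slc25a25 start 3: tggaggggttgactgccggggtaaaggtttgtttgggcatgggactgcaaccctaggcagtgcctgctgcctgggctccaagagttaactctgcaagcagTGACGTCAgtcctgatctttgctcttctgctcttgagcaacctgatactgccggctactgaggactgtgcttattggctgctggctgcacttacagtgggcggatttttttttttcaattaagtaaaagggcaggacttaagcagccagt
Slc25a47: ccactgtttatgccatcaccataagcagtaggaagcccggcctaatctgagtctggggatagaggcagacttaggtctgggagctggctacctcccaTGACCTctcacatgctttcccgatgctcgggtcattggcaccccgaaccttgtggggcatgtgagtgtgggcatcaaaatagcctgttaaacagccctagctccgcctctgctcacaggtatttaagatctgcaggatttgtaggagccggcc

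Both strands of the 250 bases before each start were searched for 5 motifs, which were chosen after these sequences had been seen. They were TGACGTCA, the AP-1 site TGANTCA, the E-box CACGTG, the D-box TTATGTAA and the half-site AGGTCA. None of them overlapped another in the windows shown, and the other 2 starts of Slc25a25 held none. Of 32851 RefSeq windows of this length, TGACGTCA was in 1.55%, TGANTCA in 6.75%, CACGTG in 6.02%, TTATGTAA in 0.819% and AGGTCA in 14%. Windows were given for 22 of the 24 members, with 29 starts. TGACGTCA was in 1 member (Slc25a25), TGANTCA in 2 (Slc25a11 and Slc25a13), CACGTG in 4 (Slc25a1, Slc25a13, Slc25a14 and Slc25a15), TTATGTAA in 0 and AGGTCA in 2 (Slc25a34 and Slc25a39). These counts are of genes with the motif at any start. The matching shares of all genes were 1.77% for TGACGTCA, 7.82% for TGANTCA, 6.86% for CACGTG, 0.977% for TTATGTAA and 15.8% for AGGTCA. Windows were also given for 6 of the 9 carriers analysed under older names. Of these, AGGTCA was in 2 (Slc25a45 and Slc25a47), CACGTG in 1 (Slc25a33) and each other motif in 0. Which start the Slc25a25 probe reads is not given, and no binding was measured.

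Slc25a25 encodes a carrier that exchanges ATP-Mg for phosphate and is activated by calcium. Its log2 signal was 10.93, 10.73 and 11.24 in the controls. At 6 h it was 12.14, 12.16, 12.50 and 12.18, and at 12 h it was 12.77, 12.70, 12.67 and 12.81. Every treated array lay above every control, and every 12 h array lay above every 6 h array. In the signals as deposited, before normalisation, the controls ran from 1969 to 2071, the 6 h arrays from 4172 to 6593 and the 12 h arrays from 5373 to 7080, and here the treated groups overlapped each other.

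The Slc25a25 transcript was 2.43-fold higher at 6 h than in the controls (log2 difference 1.28 ± 0.14 SE, 95% interval 0.97 to 1.59, limma adjusted p = 0.00052). At 12 h it was 3.42-fold higher (1.77 ± 0.14 SE, interval 1.46 to 2.08, adjusted p = 1.29e-05). The 12 h mean exceeded the 6 h mean by 0.50 ± 0.13 SE on the log2 scale (interval 0.21 to 0.78), which missed the threshold of 0.05 over all genes (adjusted p = 0.0927). In bulk tissue, less RNA per cell and fewer cells of a type cannot be told apart, and this holds for all values below. On single chips, the 6 h array or arrays exceeded the control by 0.91, 1.77 and 1.25 log2 units, and the 12 h array by 1.97 and 1.89. With the chip as a fixed block, the differences were 1.27 ± 0.17 SE at 6 h (adjusted p = 0.0223) and 1.81 ± 0.21 SE at 12 h (adjusted p = 0.00616). The gene had 1 probe, so no other probe of it could be set beside this one.

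**Figure D1:**
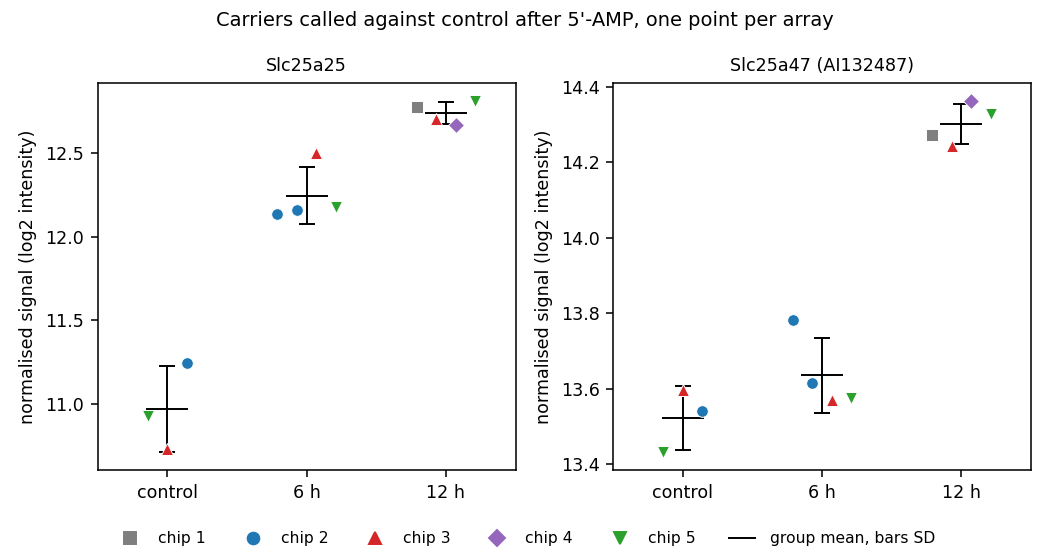
Log2 normalised signal (vertical axis) of Slc25a25 and of AI132487 (Slc25a47) on each array, by group; points are arrays, marked by chip, and bars are the group means with their SD. Slc25a25 rose from 10.97 ± 0.26 in the controls to 12.24 ± 0.17 at 6 h and 12.74 ± 0.07 at 12 h, whereas the 6 h arrays of AI132487 overlapped its controls and its 12 h arrays, at 14.30 ± 0.05, lay above both.

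Slc25a25 was the 1 member of 24 called at 6 h, where 1.13% of all genes were called. It was also the 1 member called at 12 h, where 3.23% of all genes were. Between 12 h and 6 h limma called 0 of 24 members, against 1.22% of all genes, and 1 member, again Slc25a25, had an unadjusted p under 0.05. Unadjusted p-values under 0.05 were found for 5 members at 6 h and 6 at 12 h, and for 16.7% and 17.7% of all genes. The members' median log2 difference was -0.05 at 6 h and -0.01 at 12 h, beside -0.02 and -0.04 over all genes. At 6 h 9 members lay above the controls and 15 below, and at 12 h 12 lay on each side.

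Arrays did not overlap between the groups for 3 members at 6 h, against 13.9% of all genes. Slc25a20 and Slc25a25 were higher there and Slc25a38 was lower. At 12 h they did not overlap for 5 members, against 20.7% of all genes, of which Slc25a15 and Slc25a25 were higher and Slc25a12, Slc25a26 and Slc25a38 lower. For 12 h against 6 h the count was 1, Slc25a25, against 9.81% of all genes. For 21 of the 23 members without a call, both 95% intervals against control lay within 1 log2 unit of 0. A change in normalised signal above 2-fold lay outside these intervals. The exceptions were Slc25a13 and Slc25a30. The 21 include Slc25a14, Slc25a22 and Slc25a29, which were not detected on every array. Group means of Slc25a22 and Slc25a29, 5.17 to 5.58, lay near the arrays' lowest detected log2 values, 5.31 to 5.42. So close to the detection limit, their intervals cannot exclude a 2-fold change in RNA. The SD within groups, pooled over the 3 groups, had a median of 0.195 over the members, from 0.108 to 0.754.

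**Figure D2:**
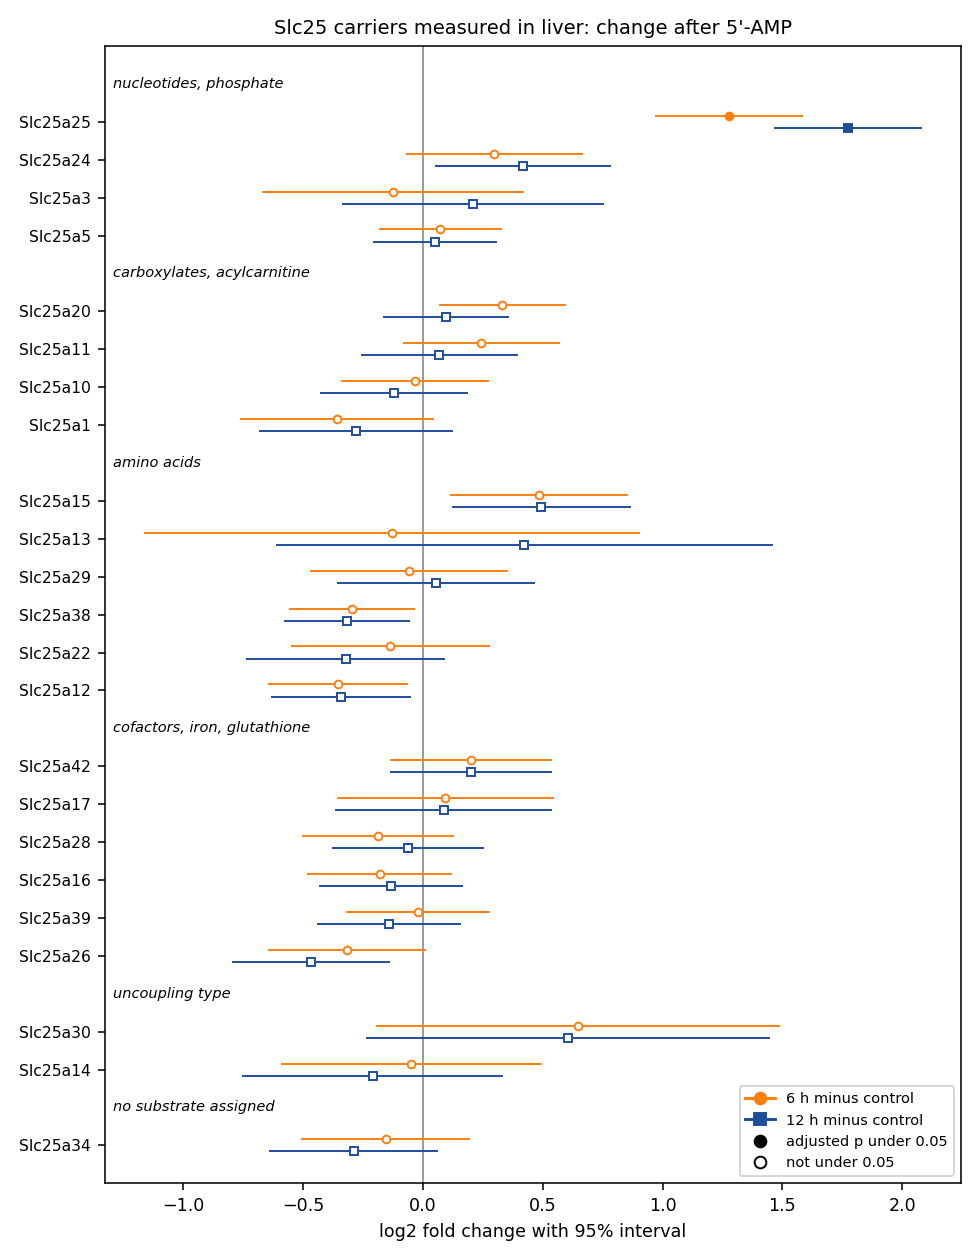
Log2 difference from control (horizontal axis) of 23 of the 24 members, grouped by what they carry, at 6 h and 12 h; points are limma estimates and lines their 95% intervals. Both intervals of Slc25a25 lie far to the right of 0, and those of Slc25a13 and Slc25a30 are the widest.

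The carriers of adenine nucleotides and phosphate numbered 4 among those analysed, of 5 in the table. Apart from Slc25a25, none was called. Slc25a5, the ADP/ATP carrier ANT2, had a log2 signal of 13.77, 13.73 and 13.44 in the controls, 13.70, 13.78, 13.81 and 13.59 at 6 h and 13.72, 13.75, 13.62 and 13.70 at 12 h. The groups overlapped, and the differences were 0.07 ± 0.12 SE (adjusted p = 0.808) and 0.05 ± 0.12 SE (adjusted p = 0.874). Slc25a24, a calcium-dependent ATP-Mg carrier closely related to Slc25a25, differed by 0.30 ± 0.17 SE at 6 h (adjusted p = 0.401) and by 0.42 ± 0.17 SE at 12 h (adjusted p = 0.22). It read 6.58, 5.81 and 6.30 in the controls, 6.37, 6.49, 6.67 and 6.57 at 6 h and 6.47, 6.65, 6.82 and 6.63 at 12 h. The groups overlapped, and control 2 was the lowest array. Without control 2 the differences were 0.089 and 0.21, and with control 1 left out instead they were 0.47 and 0.59. Its other probe gave -0.27 and -0.18, the opposite sign, and the mean of both probes differed by 0.015 and 0.12. Slc25a4, the ANT1 form of heart and muscle, was not detected on any array.

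Slc25a3, the phosphate carrier that supplies ATP synthase, had a log2 signal of 11.66, 11.57 and 10.80 in the controls. It was 10.66, 11.12, 11.49 and 11.62 at 6 h and 11.70, 11.56, 11.25 and 11.70 at 12 h. The 3 arrays of chip 2 (control 3 and 6 h arrays 1 and 2) were the lowest, at 10.66 to 11.12, and all others lay at 11.25 to 11.70. The differences from control were -0.12 ± 0.25 SE (adjusted p = 0.851) and 0.21 ± 0.25 SE (adjusted p = 0.72). With the chip as a fixed block the SE was 0.14 at 6 h and 0.18 at 12 h, and neither difference was called. The other probe of Slc25a3 gave -0.04 and 0.02.

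Carriers of di- and tricarboxylates and of acylcarnitine numbered 4 of 5, with 0 called at either time. Slc25a20 carries acylcarnitines into the matrix for beta-oxidation. The log2 signal of Slc25a20 was 11.78, 12.07 and 11.90 in the controls, 12.29, 12.11, 12.42 and 12.17 at 6 h and 11.93, 12.13, 11.98 and 12.00 at 12 h. Each 6 h array lay above each control, and the 12 h arrays overlapped both groups. The difference was 0.33 ± 0.12 SE at 6 h (adjusted p = 0.209) and 0.10 ± 0.12 SE at 12 h (adjusted p = 0.736). Its other probe gave 0.26 and 0.53.

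Slc25a1 exports citrate, the source of cytosolic acetyl-CoA for fatty acid synthesis. The arrays read 11.88, 11.85 and 12.07 in the controls, 11.39, 11.98, 11.27 and 11.68 at 6 h and 11.88, 11.35, 11.87 and 11.54 at 12 h. The groups overlapped at both times. The differences were -0.36 ± 0.19 SE (adjusted p = 0.36) and -0.28 ± 0.19 SE (adjusted p = 0.464). Its other probe gave -0.30 at 6 h and 0.015 at 12 h. Slc25a11, the 2-oxoglutarate/malate carrier of the malate-aspartate shuttle, differed by 0.24 ± 0.15 SE at 6 h (adjusted p = 0.449), while its other 2 probes gave -0.03 and -0.08. Slc25a10, the dicarboxylate carrier, differed by -0.03 ± 0.14 SE (adjusted p = 0.938). The oxoadipate carrier Slc25a21 was not detected.

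Among the amino acid carriers 6 of 8 were analysed and 0 were called. Slc25a15 exchanges ornithine for citrulline in the urea cycle. On the log2 scale it read 12.08, 11.97 and 11.85 in the controls, 12.53, 12.35, 12.85 and 12.08 at 6 h and 12.55, 12.65, 12.31 and 12.35 at 12 h. The 12 h arrays all lay above the controls, while the fourth 6 h array lay within their range. The differences were 0.49 ± 0.17 SE at 6 h (adjusted p = 0.197) and 0.49 ± 0.17 SE at 12 h (adjusted p = 0.153). Its other probe gave 0.46 and 0.70.

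Slc25a13 is citrin, the aspartate/glutamate carrier of liver that serves both the urea cycle and the malate-aspartate shuttle. Its log2 signal was 7.07, 6.90 and 5.25 in the controls, 5.75, 6.06, 6.91 and 6.38 at 6 h and 6.41, 7.36, 5.96 and 7.58 at 12 h. The groups overlapped and control 3 was the lowest array. The 3 arrays of chip 2 lay at 5.25 to 6.06, those of chip 3 at 6.90 to 7.36 and those of chip 5 at 6.38 to 7.58. The single array of chip 4 read 5.96, within the range of chip 2, and that of chip 1 read 6.41. The differences were -0.13 ± 0.48 SE at 6 h (adjusted p = 0.928) and 0.42 ± 0.48 SE at 12 h (adjusted p = 0.699), and their directions depended on single arrays. Without control 3 the 12 h difference was -0.16, and with the chip as a fixed block the 6 h difference was 0.061.

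Slc25a12, the aspartate/glutamate carrier aralar, had a log2 signal of 7.38, 7.46 and 7.77 in the controls, 7.06, 7.39, 7.11 and 7.17 at 6 h and 7.28, 7.03, 7.28 and 7.19 at 12 h. All 12 h arrays and 3 of the 4 at 6 h lay below the controls, with differences of -0.35 ± 0.13 SE (adjusted p = 0.219) and -0.34 ± 0.13 SE (adjusted p = 0.205). Slc25a38 imports glycine for haem synthesis. Its log2 values were 11.16, 11.06 and 11.21 in the controls, 10.90, 11.005, 10.73 and 10.77 at 6 h and 10.83, 10.64, 10.95 and 10.89 at 12 h. All 8 treated arrays lay below the controls, with differences of -0.30 ± 0.12 SE (adjusted p = 0.242) and -0.32 ± 0.12 SE (adjusted p = 0.19). The other 2 probes of Slc25a38 also gave negative differences at both times, -0.28 and -0.18 in one and -0.52 and -0.51 in the other. The glutamate carrier Slc25a22 and the basic amino acid carrier Slc25a29 were detected on only some arrays, 5 and 8 of 11, and neither was called. Slc25a2 and Slc25a18 were not detected.

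**Figure D3:**
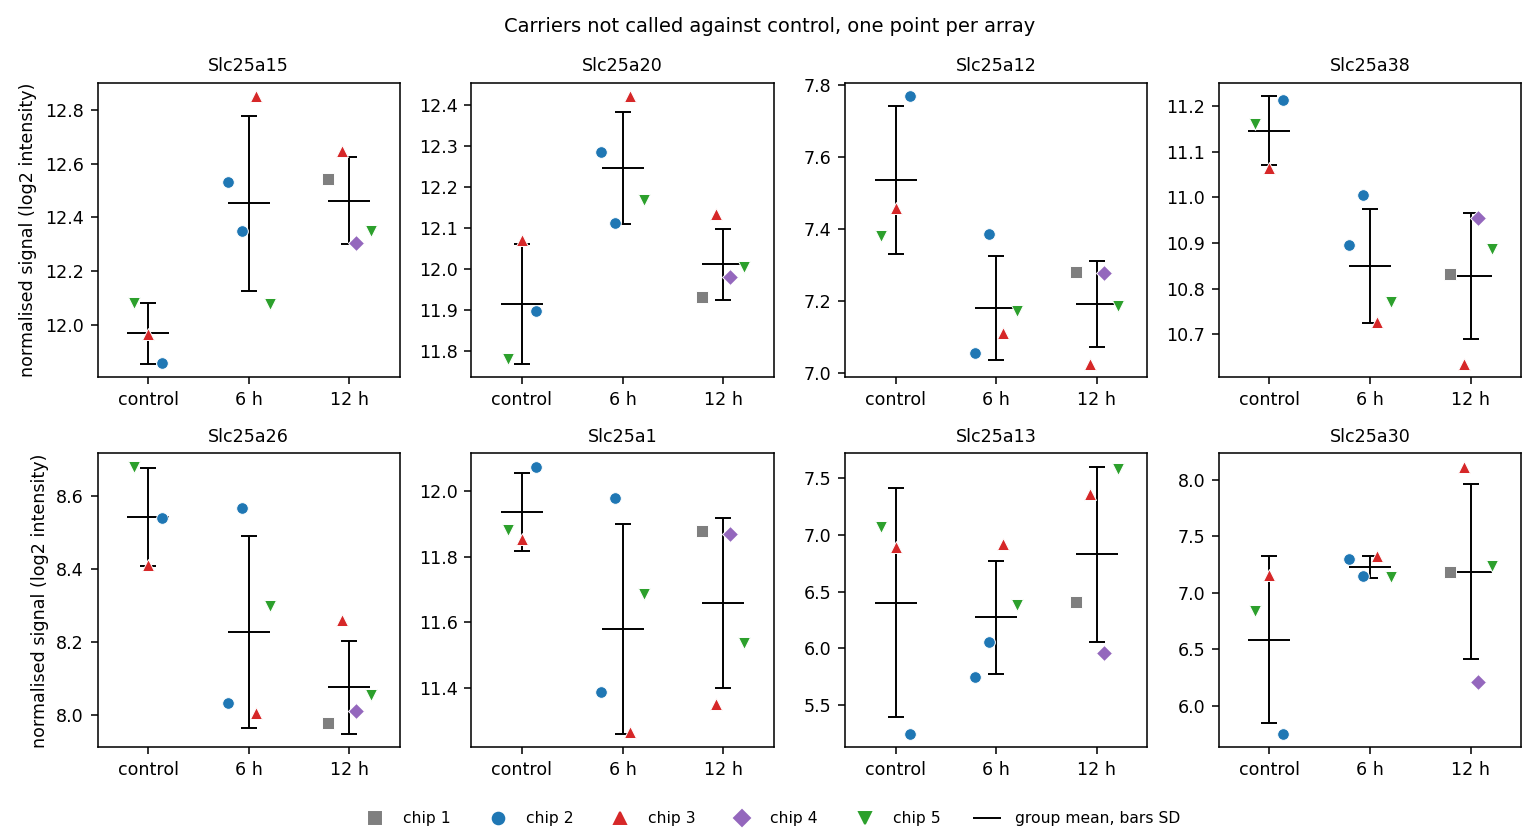
Log2 normalised signal (vertical axis) of carriers without a call on each array, by group; points are arrays, marked by chip, and bars are group means with SD. The arrays of chip 2 lie low for Slc25a13, at 5.25 to 6.06, as does that of chip 4, at 5.96, and the treated arrays of Slc25a38 lie below its controls.

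The carriers of cofactors, iron and glutathione were all analysed, 7 of 7, and 0 were called. At both times 2 lay above the controls and 5 below. Slc25a26 imports S-adenosylmethionine, the methyl donor. On the log2 scale it read 8.68, 8.41 and 8.54 in the controls, 8.03, 8.57, 8.01 and 8.30 at 6 h and 7.98, 8.26, 8.01 and 8.05 at 12 h. The 12 h arrays all lay below the controls and the 6 h arrays overlapped them. The differences were -0.32 ± 0.15 SE (adjusted p = 0.316) and -0.47 ± 0.15 SE (adjusted p = 0.13).

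Slc25a28 is mitoferrin 2, an iron carrier. The log2 signal of Slc25a28 was 11.11, 11.08 and 11.18 in the controls, 11.02, 11.10, 11.05 and 10.56 at 6 h and 10.997, 11.09, 11.25 and 10.91 at 12 h. The groups overlapped, and the fourth 6 h array was the lowest. The coenzyme A carrier Slc25a42 lay 0.20 ± 0.16 SE above control at 6 h and at 12 h (adjusted p = 0.559 and 0.535). The glutathione carrier Slc25a39, the peroxisomal carrier Slc25a17 and Slc25a16 differed from control by -0.18 to 0.09 at either time.

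Of the uncoupling type 2 of 5 were analysed, Slc25a14 and Slc25a30, and 0 were called. Slc25a14, also called UCP5, differed by -0.05 ± 0.25 SE at 6 h (adjusted p = 0.951) and by -0.21 ± 0.25 SE at 12 h (adjusted p = 0.718). Slc25a30, the kidney mitochondrial carrier KMCP1, had a log2 signal of 6.84, 7.16 and 5.75 in the controls, 7.30, 7.15, 7.33 and 7.14 at 6 h and 7.18, 8.12, 6.21 and 7.24 at 12 h. The groups overlapped. The differences of 0.65 ± 0.39 SE (adjusted p = 0.43) and 0.60 ± 0.39 SE (adjusted p = 0.447) were within the spread between arrays.

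Ucp2, found mainly in immune cells and Kupffer cells of liver, and Ucp3, the form of skeletal muscle, were not detected on any of the 11 arrays, nor was the brain form Slc25a27. The 7 members that failed the filter had 13 probes between them, with deposited signals of 61.9 to 124.6, and each probe was detected on 0 arrays. Of 8 Kupffer cell markers 7 were detected often enough to be analysed, and 1 of 5 skeletal muscle markers was. All 7 Kupffer cell markers lay below the controls at both times, with a median difference of -0.38 at 6 h and -0.63 at 12 h and 0 called. Their summed signal spanned 3394 to 4669 on control arrays, 2409 to 5950 on 6 h arrays and 2097 to 3263 on 12 h arrays, and Cd5l did not pass the filter. Slc25a34, whose substrate is not settled, differed by -0.15 ± 0.16 SE at 6 h (adjusted p = 0.681) and -0.29 ± 0.16 SE at 12 h (adjusted p = 0.379). Its log2 signal was 6.14, 6.34 and 6.68 in the controls, 6.27, 6.24, 6.19 and 6.22 at 6 h and 5.94, 5.93, 6.48 and 6.03 at 12 h, and the groups overlapped.

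The array table also lists 20 symbols that are older names of carriers of the family. Of these, 3 belong to genes already among the members and did not pass the filter, and 17 are further carriers that the choice by symbol does not take in. Of the 17, 9 passed the filter. At 6 h 0 of the 9 were called (1.13% of all genes), at 12 h 1 (3.23%) and for 12 h against 6 h 1 (1.22%). Both calls were AI132487, the liver-enriched carrier Slc25a47. Its log2 signal was 13.43, 13.60 and 13.54 in the controls, 13.78, 13.62, 13.57 and 13.58 at 6 h and 14.27, 14.24, 14.36 and 14.33 at 12 h. The 12 h arrays lay above all others, and the 6 h arrays overlapped the controls.

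The Slc25a47 transcript was 1.72-fold higher at 12 h than in the controls (log2 difference 0.78 ± 0.11 SE, interval 0.55 to 1.01, adjusted p = 0.00119). At 6 h the difference was 0.11 ± 0.11 SE (interval -0.12 to 0.35, adjusted p = 0.641). The 12 h arrays exceeded the 6 h arrays by 0.67 ± 0.10 SE (adjusted p = 0.00867), which tests the difference between the times itself. Within chips the 12 h array exceeded the control by 0.65 and 0.90. With the chip as a fixed block the 12 h difference was 0.79 ± 0.15 SE and no longer passed (adjusted p = 0.0563), and that between the times was 0.69 ± 0.15 SE (adjusted p = 0.232). Under median centring the difference between the times was 0.46 (adjusted p = 0.0656), where the median of all genes was -0.21.

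Mscp, now Slc25a37, is mitoferrin 1, the iron importer best known from developing red blood cells. The log2 signal of Mscp was 7.99, 7.59 and 7.98 in the controls, 8.93, 8.13, 8.88 and 8.03 at 6 h and 8.06, 7.79, 8.41 and 8.01 at 12 h. Each 6 h array lay above each control, and the 12 h arrays overlapped both groups. The differences were 0.64 ± 0.24 SE at 6 h (adjusted p = 0.214) and 0.21 ± 0.24 SE at 12 h (adjusted p = 0.694). Of 9 erythroid markers 5 passed the filter, and all 5 lay above the controls at both times, by a median of 0.70 at 6 h and 0.36 at 12 h, with 0 called. Their summed signal spanned 26425 to 51361 on control arrays, 56326 to 70807 on 6 h arrays and 50640 to 61552 on 12 h arrays. Epb4.2 and Hbb-b2 were among the markers that did not pass the filter, and the part of red cell RNA in the values of Slc25a37 was not tested.

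Of the other carriers under older names, 5730438N18Rik, the pyrimidine nucleotide carrier Slc25a33, had a log2 signal of 8.71, 9.34 and 9.48 in the controls, 8.72, 8.87, 8.70 and 8.91 at 6 h and 9.46, 9.47, 9.34 and 9.59 at 12 h. All 12 h arrays lay above all 6 h arrays, by 0.66 ± 0.15 SE (adjusted p = 0.0616), and neither group was called against control. E230025K15, now Slc25a48, was detected on 3 of 3 control arrays, on 0 of 4 at 6 h and on 2 of 4 at 12 h. It passed the filter only by counting its control arrays, so its lower level at 6 h is given without a test. The gene stays among the 9 counted above, but its lack of a call at 6 h is not read as a result. With the undetected arrays at their detection limit, its 6 h mean lay 1.28-fold below the control mean, a figure that carries no sampling error. In the signals as deposited the groups overlapped, at 112 to 130 in the controls and 93.4 to 122 at 6 h. The remaining 5, Slc25a23, Slc25a32, Slc25a44, Slc25a45 and Slc25a53, differed from control by -0.09 to 0.24.

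**Figure D4:**
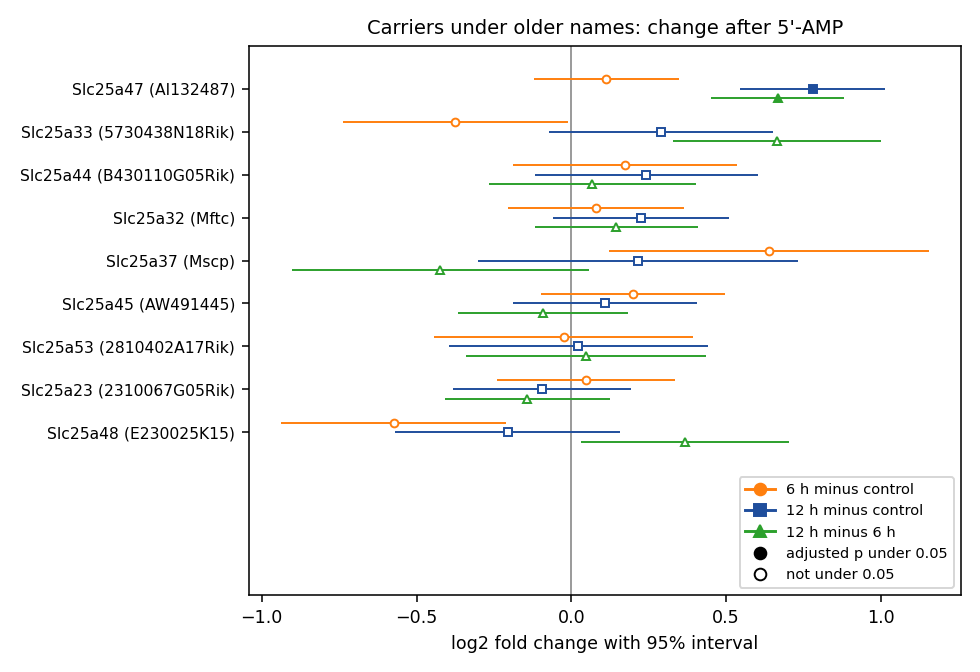
Log2 difference (horizontal axis) of the 9 carriers listed under older names, at 6 h and 12 h against control and for 12 h against 6 h; points are limma estimates and lines their 95% intervals. For AI132487 (Slc25a47) the 6 h interval includes 0 and the 12 h interval, 0.55 to 1.01, does not. The E230025K15 estimates that involve 6 h rest on undetected arrays, and their intervals are not read as tests.

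Genes that work with the carriers were taken from 7 lists, of which 97 genes passed the filter. Of the 97, 0 were called at 6 h, against 1.13% of all genes, and 2 at 12 h, against 3.23% of all genes. Of 14 enzymes of the metabolite shuttles and of citrate metabolism, 1 was called at 12 h, Got1, and the list's median was 0.05 at 6 h and 0.08 at 12 h. Got1 is the cytosolic aspartate aminotransferase, which acts beside Slc25a11, Slc25a12 and Slc25a13 in the malate-aspartate shuttle. On the log2 scale Got1 read 9.12, 8.93 and 8.92 in the controls, 9.33, 9.52, 9.82 and 9.47 at 6 h and 9.94, 10.16, 9.64 and 10.13 at 12 h. All treated arrays lay above the controls, with differences of 0.54 ± 0.16 SE at 6 h (adjusted p = 0.127) and 0.98 ± 0.16 SE at 12 h (adjusted p = 0.00357).

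Of 15 regulators of mitochondrial genes 1 was called at 12 h, the mitochondrial deacetylase Sirt3, with list medians of -0.04 and -0.09. The log2 signal of Sirt3 was 12.01, 12.00 and 11.93 in the controls, 11.51, 11.54, 11.39 and 11.61 at 6 h and 11.31, 11.46, 11.46 and 11.63 at 12 h. All treated arrays lay below the controls, with differences of -0.47 ± 0.11 SE at 6 h (adjusted p = 0.0783) and -0.51 ± 0.11 SE at 12 h (adjusted p = 0.0269). The 12 h call was lost in 8 of 23 other settings, 6 of them with 1 array left out, with adjusted p-values of up to 0.261.

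The other 5 lists had 0 genes called at either time. Their median log2 differences can be read beside -0.02 and -0.04 over all genes. For 20 outer membrane channels and import proteins they were -0.14 at 6 h and -0.18 at 12 h, and 17 of the 20 lay below the controls at 12 h, as did 56.4% of all genes. For 13 other transporters of the inner membrane they were -0.00 and -0.08, and for 11 genes of the carnitine shuttle and beta-oxidation -0.01 and 0.19. For 10 genes of the urea cycle and glutamate handling, which share substrates with Slc25a13 and Slc25a15, they were 0.06 and 0.08, with 9 of 10 above the controls at 12 h, as were 43.6% of all genes. For 14 genes of iron-sulphur and haem synthesis, with Hmox1 of haem breakdown and Tfrc of cellular iron uptake among them, they were 0.01 and 0.07. The synthesis steps use the iron and glycine that Slc25a28, Slc25a37 and Slc25a38 import.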

How the data were processed

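Per the file headers, the authors deposited a mean bead signal, an intensity on a linear scale, and a detection p-value for 45281 probes on each of 11 arrays. GenomeStudio is named in the submitters' processing notes, with no version. The deposited normalised table, also an intensity on a linear scale, served as an alternative. All value columns matched a labelled sample. No 2 arrays were identical (correlations 0.968 to 0.991).

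Signals were background-corrected (normexp from the detection p-values, offset 16), quantile-normalised and log2-transformed by the neqc function of limma 3.58.1 (R 4.3.3, statmod 1.5.0). Of the probes 16978 passed the detection filter. They stand for 12512 genes, of which 3260 had more than 1 kept probe. Among the 24 members 16 had 1 kept probe and 8 had more. Symbols were updated through RefSeq: 6770 were current, 3823 matched as synonyms and 1919 did not match. All members matched.

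A single limma fit of group means over all 11 arrays (8 residual and 4.18 prior degrees of freedom) gave 3 comparisons. Two-sided p-values were Benjamini-Hochberg adjusted over all genes. Called means an adjusted p under 0.05. Precision is limited by the number of arrays. The labels name separate mice but not how they were housed or processed. Same-numbered arrays of different groups did not deviate together (10 pairs, r from -0.18 to 0.45), so numbers were not taken as pairs. The pair at 0.45 also shared a chip. For arrays of different groups, r ran from -0.02 to 0.45 on the same chip and from -0.40 to 0.29 on different chips. The main fit leaves the chip out, and it was taken as a block among the alternatives. On simulated data for 12512 genes, changes of 1 log2 unit were recovered in 74 of 100 genes for 6 h against control, 82 for 12 h against control and 80 for 12 h against 6 h. False calls numbered 8, 13 and 6. The simulated noise was normal and independent between genes and arrays, so these figures take in no chip effects.

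The members, role groups, gene lists and marker lists were chosen with earlier results of these data known. Values of every array were given for called carriers, for the member with the smallest p in each role group without a call, and for Slc25a1, Slc25a13, Slc25a15, Slc25a20, Slc25a25, Slc25a37 and Slc25a47. From the gene lists, called genes were named. Other genes named were chosen after their values were seen. Alternatives were other background corrections, scalings, filters, probe rules, samples, weights, variance models and blocks, and leaving out each array. The values of 1 member and 1 marker gene are not reported here, but both stay in the counts.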

Additional observations from a re-analysis of the deposited data

Results flagged for a closer look

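In 66 groups of 4 treated arrays, 4 held an array whose distance from the nearest other array was a large share of the group's range; chance gives about 1 in 20. The third 6 h array of Slc25a25 read 12.50, the others 12.14 to 12.18, and without it the 6 h difference from control was 1.20 (adjusted p = 0.00145). The fourth 6 h array of Slc25a28 read 10.56, the others 11.02 to 11.10. The third 12 h array of Slc25a34 read 6.48, the others 5.93 to 6.03. The second 12 h array of 2310067G05Rik, now Slc25a23, read 8.50, the others 8.91 to 8.96. AI132487 (Slc25a47) was included because its 2 treated groups differed by test, with the 12 h arrays 0.67 log2 units above the 6 h arrays.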

How the results depend on the processing

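The count of members called was recomputed in 23 alternatives, and Slc25a25 was the member called at 6 h and at 12 h in each. Its difference ran from 1.16 to 1.41 at 6 h and from 1.66 to 1.90 at 12 h. For 12 h against 6 h the count of 0 became 1, Slc25a25, with no background correction (adjusted p = 0.0424) and with a trended and robust variance (adjusted p = 0.0389). With the replicate number as a block, the counts of members stayed 1, 1 and 0, and Slc25a25 differed from control by 1.28 and 1.77. That block moved the count of all genes called for 12 h against 6 h from 153 to 93. Over all alternatives, the count of all genes called ran from 58 to 258 at 6 h (141 as reported), from 132 to 743 at 12 h (404) and from 5 to 851 between the times (153). Of the differences recomputed, none of the called ones changed sign, and uncalled ones did in 7 cases. Slc25a13 at 6 h was 0.061 with the chip as a fixed block and ran from -0.71 to 0.20 with 1 array left out, and at 12 h it ran from -0.16 to 0.76 with 1 array left out. Under median centring Slc25a20 at 12 h was -0.0058 and Slc25a34 at 6 h was 0.0054. That setting moved the median of all genes to 0.12 (6 h), -0.11 (12 h) and -0.21 (12 h against 6 h), and the members' median to 0.094, -0.12 and -0.25. It also brought Slc25a37 at 6 h past the threshold (0.83, adjusted p = 0.0464). Slc25a33 passed for 12 h against 6 h in 5 settings, with a lowest adjusted p of 0.0185. Under the stricter filter 18 of the 24 members are left, and Slc25a13, Slc25a14, Slc25a22, Slc25a24, Slc25a29, Slc25a30 and, of the older names, E230025K15 have no value.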
